A study of Mus musculus with 8 samples.

Results

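Heparan sulfate and chondroitin sulfate proteoglycans are core proteins that carry long, sulfated sugar chains. The genes described here are the enzymes that build and modify those chains, together with the syndecans and glypicans that carry them. They were taken by gene symbol from the deposited table: 52 of its 22200 genes matched the family names Hs2st, Hs3st, Hs6st, Ndst, Ext, Extl, Glce, Sulf, Chsy, Chst, Xylt, B3gat, Sdc and Gpc, and all 52 are annotated as protein coding. The rule uses symbols and no measured value, but the family was picked with earlier results of these data known.

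The cells were immortalized mouse embryonic fibroblasts on the C57BL/6 background, all labelled TAF4-/-, that is, without the TFIID subunit TAF4. They fall into 3 groups: untreated cells at 12 h (n = 3 libraries), cells given retinoic acid (RA) for 12 h (n = 3) and cells given RA for 72 h (n = 2). The later time follows the labels and the results text of the study, while its methods name a shorter RA treatment. The 8 samples follow the labels, where the design text counts 7. RA is the ligand of nuclear receptors that bind DNA and switch genes on or off. Untreated cells were sampled at 12 h alone, which means that RA and culture time cannot be told apart at 72 h, and every comparison is within cells labelled as lacking TAF4. The replicates are separate samples in the labels, but nothing says that they are separate cultures, so the p-values measure the spread between these samples only. The libraries were all of bulk RNA, in which fewer cells that express a gene and less of its RNA per cell cannot be told apart.

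A chain starts when a xylosyltransferase places xylose on a serine of the core protein, and a short linker of sugars is then completed by enzymes such as B3gat3. In heparan sulfate, EXT1 and EXT2 extend the chain together with glucuronic acid and N-acetylglucosamine, NDST enzymes exchange acetyl for sulfate groups, GLCE converts glucuronic to iduronic acid, and 2-O-, 6-O- and 3-O-sulfotransferases add sulfate. The pattern of sulfates decides which growth factors, morphogens and proteases bind, and fibroblasts display such chains on syndecans, which span the membrane, and on glypicans, which are held by a lipid anchor. Chondroitin and dermatan sulfate are built on the same linker by other synthases and sulfotransferases.

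The values are quantile-normalised reads per gene. Every library sums to 9442018.6 and spans the same set of values from a floor of 1, with a median of 20.75, so the sequencing depth of single libraries is unknown and no counting interval can be given. The fibroblast identity was checked with 10 markers, whose sum lay between 234049 and 274614 in the 8 libraries. The range of this sum is partly set by the normalization, because its largest terms are top values of the shared set. Col1a1, for example, had 65328 in all 3 RA 12 h libraries. Of the 10 markers, 9 had a mean of at least 10, and Thy1 was near the floor with a mean of 1.86. Sums were 22.2 to 39.1 for 5 epithelial, 23 to 44.6 for 5 leukocyte, 32.2 to 51.4 for 4 endothelial and 9.38 to 26.4 for 3 pluripotency markers, of which none that could be tested passed in any comparison. Of the fibroblast markers, 2 were higher and 2 lower at 72 h than in untreated cells. The RA targets Cyp26b1, Rarb and Dhrs3 all rose, led by Cyp26b1, an RA-degrading enzyme, with a log2 change of 5.99 at 12 h. Taf4a had 984 to 1449 normalised reads, which does not check the genotype label, because a sum over the gene does not separate deleted from retained exons. Within groups the libraries differed along 1 shared axis that held 50.1% of the within-group variance: on side 1 lay untreated replicates 1 and 2 with replicate 3 of RA 12 h and replicate 2 of RA 72 h, and on side 2 the other 4 libraries. The labels name no batch, so changes are also given within these sides.

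Of the 52 genes, 45 had a mean of at least 10 normalised reads over the 8 libraries and were tested with limma on log2(value + 1), with p-values adjusted over all 12673 genes tested. Genes past an adjusted p of 0.05 are said to pass, and those that also changed at least 2-fold are said to be called. In at least 1 of the 3 comparisons, 12 of the 45 (26.7%) passed the adjusted p, against 14.2% of all tested genes. The other 33 passed in none. The 12 were spread over most steps of the pathway, and 5 of them were called: the heparan sulfate sulfotransferases Hs6st1, Hs6st2 and Hs3st1, the chondroitin 4-O-sulfotransferase Chst11 and the glypican Gpc4. The share of all genes called in any comparison was not computed. By comparison it was 1.42% at 12 h and 3.67% at 72 h against untreated cells, and 1.5% between the RA times. The 3 comparisons share libraries and are not independent of each other.

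**Figure D1:**
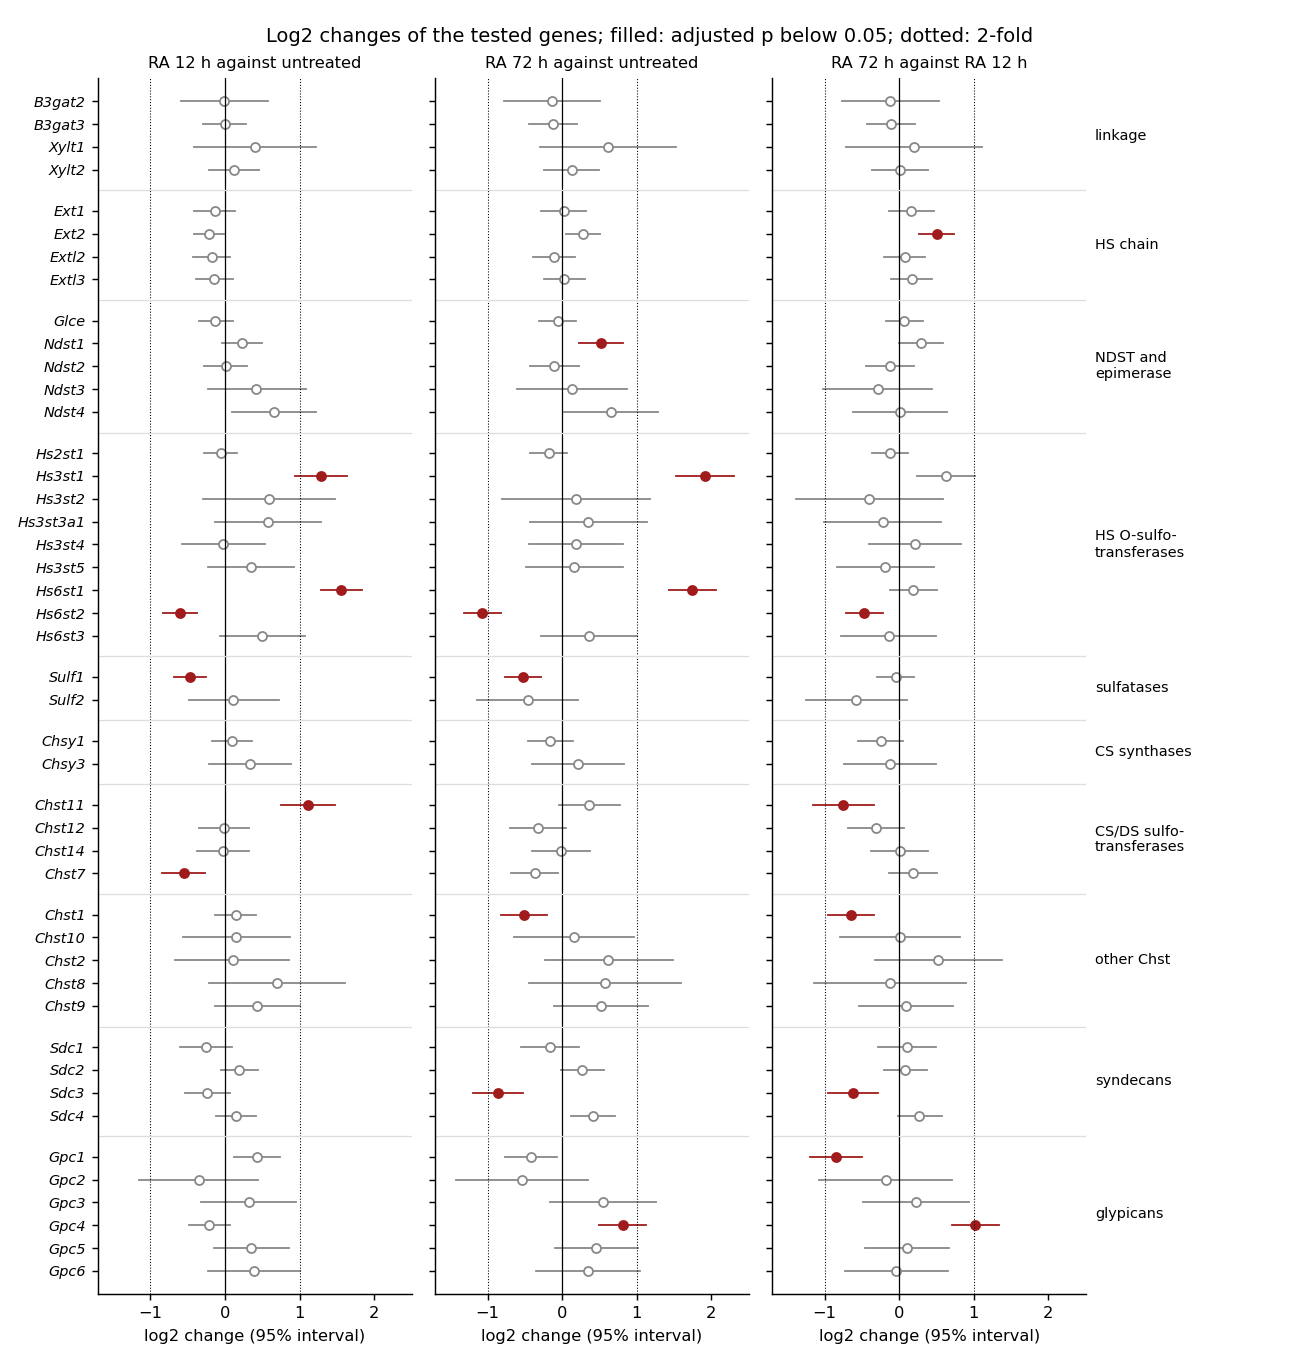
Log2 change of each of the 45 tested genes (rows, grouped by role) in the 3 comparisons (panels), on the log2(normalised reads + 1) scale, with 95% intervals from limma. Filled red points passed an adjusted p of 0.05 and dotted lines mark 2-fold. Hs6st1 and Hs3st1 lie beyond 2-fold at both times against untreated cells, Hs6st2 at 72 h and Chst11 at 12 h.

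RA at 12 h was compared with untreated cells of the same time to see which of these genes respond early. Among the 45 genes, 3 rose (Hs6st1, Hs3st1 and Chst11) and 3 fell (Hs6st2, Chst7 and Sulf1), all 6 of them sulfotransferases or a sulfatase. Such enzymes also filled much of the tested set. It held 9 heparan sulfate O-sulfotransferases, 4 chondroitin or dermatan sulfotransferases, 5 other Chst genes and 2 sulfatases, so the classes of the 6 are description only. The background over all tested genes was 2.87% higher and 1.5% lower by the adjusted p. The 3 that rose were also called, against 1.42% of all genes. No glypican, syndecan, linker or polymerase gene passed at 12 h. The median log2 change of the 45 genes was 0.12, beside -0.02 for all tested genes, and 27 of the 45 were positive. The share of positive changes over all genes was not computed. Of the 27, 13 were genes near a background of reads described further below, and the 31 genes above it had a median of -0.01. For 33 of the 45 the 95% interval lay within 2-fold in both directions.

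At 72 h of RA against untreated cells, 4 genes were higher (Hs6st1, Hs3st1, Gpc4 and Ndst1) and 4 lower (Hs6st2, Sdc3, Sulf1 and Chst1), where 6.08% of all tested genes were higher and 5.41% lower. Hs6st1, Hs3st1 and Hs6st2 were called, beside 3.67% of all genes. The median log2 change of the members was 0.16 (-0.03 without RA 72 h replicate 1) against -0.02 for all genes, and 28 of the 45 intervals lay within 2-fold. For the 31 genes above the background described below, the median was -0.11. Between 72 h and 12 h of RA, Gpc4 and Ext2 were higher (background 2.92%) and Gpc1, Chst1, Hs6st2, Chst11 and Sdc3 lower (background 2.92%), and Gpc4 alone was called, where 1.5% of all genes were. The median was 0.01, beside -0.00 for all genes.

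The 6-O-sulfotransferases Hs6st1 and Hs6st2, which place sulfate on carbon 6 of glucosamine, moved in opposite directions. Hs6st1 (ENSMUSG00000045216, mm9 chromosome 1, 36125245 to 36163291) had 328, 238 and 337 normalised reads in the untreated libraries, 913, 871 and 852 after 12 h of RA, and 1042 and 956 after 72 h. All 5 RA libraries lay above all untreated libraries, and both 72 h libraries above those of 12 h. The log2 change was 1.56 ± 0.13 (SE) at 12 h, or 2.95-fold (adjusted p 7.16e-06), and 1.74 ± 0.15 at 72 h, or 3.35-fold (adjusted p 5.19e-06). Between the 2 times it was 0.18, with a 95% interval from -0.13 to 0.50 (adjusted p 0.56). Within sides 1 and 2 the 12 h change was 1.61 and 1.40, and the 72 h change 1.77 and 1.62.

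Hs6st2 (ENSMUSG00000062184, chromosome X, 48740389 to 49035033) had 942, 918 and 815 normalised reads in untreated cells. After 12 h of RA it had 545, 601 and 610, and after 72 h 404 and 441. The 3 groups did not overlap and followed the order of RA exposure downwards. Hs6st2 fell by 0.61 ± 0.10 on the log2 scale at 12 h (adjusted p 0.00322) and by 1.07 ± 0.12 at 72 h (adjusted p 4.18e-05), to 0.475 times the untreated level. The step from 12 h to 72 h was -0.47 (adjusted p 0.0297). That step did not pass without RA 12 h replicate 1, 2 or 3 (adjusted p 0.0533, 0.124 and 0.0812) or without RA 72 h replicate 1 or 2 (0.229 and 0.112). The 12 h change was -0.61 and -0.51 within the sides, and that at 72 h -1.08 and -1.01.

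Per kilobase of exon, which allows levels of different genes to be compared if reads are spread along transcripts, the balance of the pair was reversed. Hs6st1 made up 42.2%, 35.2% and 46.5% of the sum of both genes in the untreated libraries, 77.8%, 75.3% and 74.6% after 12 h of RA, and 84.4% and 82% after 72 h. The sum itself was 182 to 209 normalised reads per kb in untreated cells and 307 to 332 in the 5 RA libraries. Hs6st2 was thus the more abundant 6-O-sulfotransferase transcript in every untreated library and Hs6st1 in every RA library. The third family member, Hs6st3, lay at 56.1 to 125 normalised reads over a gene of 731 kb and did not pass in any comparison.

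Hs3st1, whose product adds the rare 3-O-sulfate that antithrombin requires for binding, rose from a low level. Hs3st1 (ENSMUSG00000051022, chromosome 5, 40005174 to 40146714) had 39.5, 50.9 and 38.4 normalised reads in untreated cells, 102, 106 and 108 at 12 h and 168 and 159 at 72 h. The 3 groups did not overlap. The log2 change was 1.29 ± 0.16 at 12 h, or 2.44-fold (adjusted p 0.000219), and 1.91 ± 0.18 at 72 h, or 3.77-fold (adjusted p 1.24e-05), which was the largest change among the 45 genes. From 12 h to 72 h it was 0.63 with an interval from 0.24 to 1.01, and did not pass (adjusted p 0.0575). Within the sides the change was 1.25 and 1.41 at 12 h, and 1.80 and 2.10 at 72 h.

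The calls of Hs6st1 and Hs3st1 at both times, of Hs6st2 at 72 h and the adjusted p of Hs6st2 at 12 h held in all 8 fits that left out 1 library and in all 9 other alternatives. Where a 72 h library was left out, here and in the results of single genes, 1 library remained at 72 h and was assumed to vary like the other groups. The remaining heparan sulfate 2-O- and 3-O-sulfotransferases showed no change past the adjusted p. Hs2st1, the only 2-O-sulfotransferase, had group means of 963 ± 73.2 (SD, n = 3), 924 ± 75.8 (n = 3) and 846 ± 42.3 (n = 2). Its log2 change was -0.06 at 12 h (interval -0.28 to 0.16) and -0.18 at 72 h (-0.43 to 0.06). Hs3st2, Hs3st3a1, Hs3st4 and Hs3st5 lay between 5.62 and 57.4 normalised reads in single libraries. Hs3st3b1 (3.88 to 12.5) and Hs3st6 (1.5 to 4.88) were too low to test, and Hs3st3a1 and Hs3st3b1 are close paralogs between which reads may be shared.

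**Figure D2:**
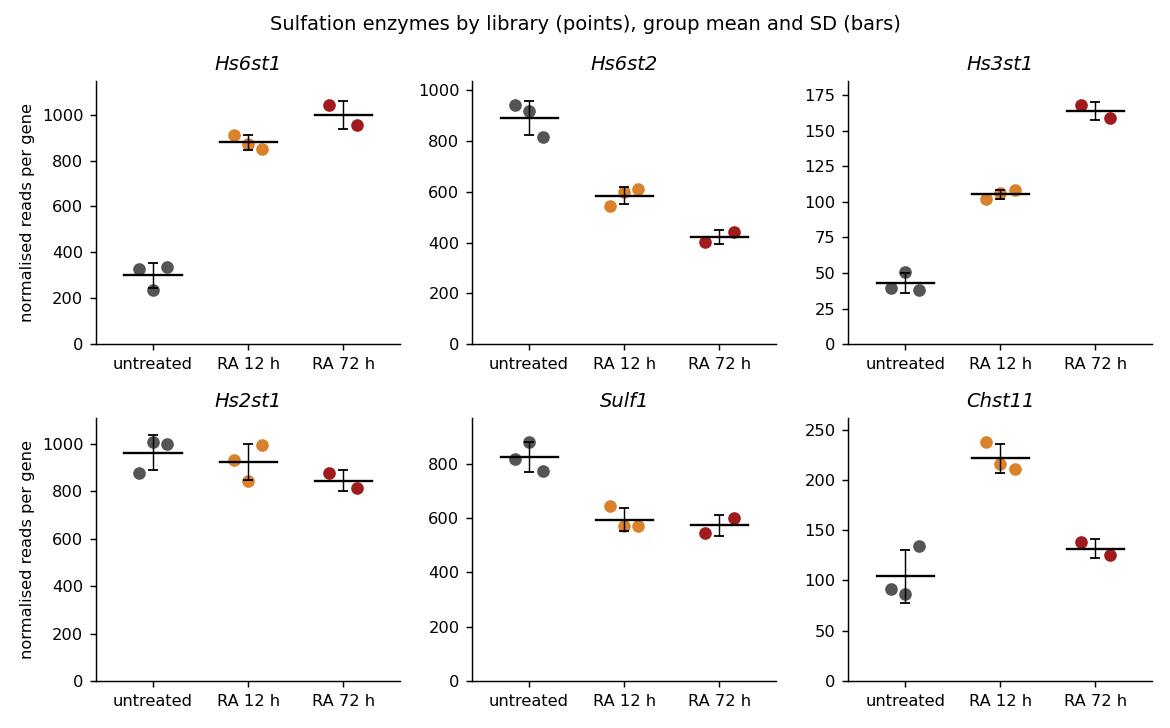
Normalised reads per gene (linear axes from 0) of 6 sulfation genes in each library (points), with the group mean and SD (bars), for untreated (n = 3), RA 12 h (n = 3) and RA 72 h (n = 2). Hs6st1 and Hs3st1 rise and Hs6st2 falls with no overlap between untreated and RA libraries, Hs2st1 overlaps between untreated and 12 h, and Chst11 is high at 12 h, with 72 h values of 138 and 125 near the highest untreated value of 134.

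Sulf1 acts on the same position as the 6-O-sulfotransferases, as an extracellular enzyme that removes 6-O-sulfate from finished chains. It had 819, 882 and 774 normalised reads in untreated cells, 643, 572 and 570 at 12 h and 547 and 600 at 72 h. All RA libraries lay below the untreated ones, and the RA groups overlapped each other. Sulf1 fell by 0.47 ± 0.10 on the log2 scale at 12 h (adjusted p 0.0171) and by 0.52 ± 0.11 at 72 h (adjusted p 0.00878), less than 2-fold. The 12 h result did not pass without untreated replicate 1 or 2 (adjusted p 0.0665 and 0.0627) or RA 12 h replicate 2 or 3 (0.112 and 0.0623), and the 72 h result not without RA 72 h replicate 1 (0.12). Sulf2, the second such sulfatase, was scarce at 13.8 to 30 normalised reads in single libraries, and passed in no comparison.

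Chst11, a chondroitin 4-O-sulfotransferase, was raised at 12 h and lower again at 72 h. Chst11 (ENSMUSG00000034612, chromosome 10, 82448243 to 82658645) had 91.9, 86.2 and 134 normalised reads in untreated cells, 238, 216 and 211 after 12 h of RA, and 138 and 125 after 72 h. The 12 h libraries stood above all others, and the 72 h libraries overlapped the untreated ones. The log2 change was 1.11 ± 0.17 at 12 h, or 2.16-fold (adjusted p 0.00122). At 72 h it was 0.36 (interval -0.04 to 0.77, adjusted p 0.264), and from 12 h to 72 h -0.75 ± 0.19 (adjusted p 0.0329). Without untreated replicate 2 the 12 h change was 0.99 (adjusted p 0.00555), just under 2-fold. The fall after 12 h did not pass without RA 12 h replicate 1, 2 or 3 (adjusted p 0.132, 0.101 and 0.0608) or RA 72 h replicate 1 or 2 (0.123 and 0.23). Within the sides, the 12 h change was 1.24 and 0.75.

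The other chondroitin and dermatan sulfotransferases were more abundant and moved less. Chst7, a chondroitin 6-O-sulfotransferase, had 536, 593 and 734 normalised reads in untreated cells, 420, 436 and 402 at 12 h and 537 and 421 at 72 h. The 12 h libraries lay below the untreated ones, and of the 72 h libraries one matched the lowest untreated value and the other the 12 h range. Chst7 fell by 0.55 ± 0.13 on the log2 scale at 12 h (adjusted p 0.0309), and at 72 h it was -0.37 (adjusted p 0.142). The 12 h result did not pass without untreated replicate 2 (adjusted p 0.0583) or without RA 12 h replicate 1, 2 or 3 (0.112, 0.104 and 0.0925). Chst12, a further 4-O-sulfotransferase with 393 to 663 normalised reads, and Chst14, which sulfates dermatan and had 316 to 459, did not pass in any comparison. Chst3, the other 6-O-sulfotransferase, was too low to test at 6.62 to 17.2. The synthase Chsy1, which extends chondroitin chains, had group means of 1292 ± 173, 1370 ± 137 and 1155 ± 156 (SD, n = 3, 3 and 2), with log2 changes of 0.09 and -0.16 whose intervals lay within 2-fold.

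The promoters of the 3 genes called at 12 h are shown because they rose together. The sequences are the 250 bases before the RefSeq start in GRCm38.p6, on the strand of the gene, with every GC box (GGGCGG or its reverse complement, the letters that SP1 family factors bind) in capitals. Hs6st1 lies at chr1:36068150-36068399 (plus strand), Hs3st1 at chr5:39644632-39644881 (minus) and Chst11 at chr10:82985247-82985496 (plus), in coordinates of a later assembly than the mm9 positions given for the genes.
Hs6st1: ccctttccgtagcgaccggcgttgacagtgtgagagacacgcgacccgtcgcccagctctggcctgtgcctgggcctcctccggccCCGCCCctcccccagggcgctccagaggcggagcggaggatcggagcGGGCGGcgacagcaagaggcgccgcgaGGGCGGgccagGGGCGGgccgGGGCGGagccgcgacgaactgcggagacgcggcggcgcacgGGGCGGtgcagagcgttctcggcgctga
Hs3st1: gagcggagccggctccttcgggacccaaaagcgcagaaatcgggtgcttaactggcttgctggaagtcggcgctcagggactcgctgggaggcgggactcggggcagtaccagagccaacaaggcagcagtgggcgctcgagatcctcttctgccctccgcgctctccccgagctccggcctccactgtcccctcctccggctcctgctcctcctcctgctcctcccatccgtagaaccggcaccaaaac
Chst11: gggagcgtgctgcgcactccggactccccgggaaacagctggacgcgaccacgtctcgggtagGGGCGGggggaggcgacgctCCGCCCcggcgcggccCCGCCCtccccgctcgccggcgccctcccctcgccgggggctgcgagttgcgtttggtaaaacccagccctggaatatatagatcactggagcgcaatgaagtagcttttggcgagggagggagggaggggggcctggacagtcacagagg
Hs6st1 held 6 GC boxes, Chst11 3 and Hs3st1 0, at 76.4%, 70% and 66% G or C in these 250 bases. The median of all RefSeq windows was 52.7%, taken over whole windows that also hold bases after the start.

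Over windows that run from 250 bases before to 50 after the start, 39 of the 52 genes had 43 windows, and a GC box was present on either strand in 29 of the 43 (67.4%), against 35.7% of all 32851 windows. The 2 sets were not matched for expression, coding status or G and C content, so this difference is description only. The half-site of the RA receptor, AGGTCA on either strand, was present in 6 of the 43 (14%), those of B3gat1, Chst10, Extl2, Gpc4, Hs6st2 and Sdc4, against 16.3% of all windows. AGGTCA repeated in the same direction after 5 free bases, or after 2, was found in 0.00913% of all windows each, and in 0 of the 43. At so low a rate a match among 43 windows was unlikely beforehand. The half-site share of the members was near that of all windows, so which members hold one is description only. Only the exact letters AGGTCA were searched. Such matches describe these windows only and carry nothing about sites outside them.

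At the start of the pathway, no linker gene moved past the adjusted p. B3gat3, which adds the last sugar of the linker, had group means of 435 ± 66, 433 ± 52.8 and 398 ± 27.1 normalised reads (SD, n = 3, 3 and 2). Its log2 change at 12 h was -0.00, with an interval from -0.29 to 0.28. Of the xylosyltransferases, Xylt2 had 95.5 to 128 normalised reads and Xylt1 12.5 to 48, and B3gat2 had 24.6 to 45. B3gat1 was too low to test at 3.25 to 8.25.

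The chain polymerases were the most abundant of all 52 genes per length. Ext2 and Ext1 averaged 1069 and 1063 normalised reads per kb of exon, each at the 95.3 percentile of 12503 genes, whose median was 48.6. The ratio of Ext1 to Ext2 per kb was 0.952 to 1.12 in untreated cells, 0.983 to 1.19 at 12 h and 0.894 and 0.817 at 72 h. The partners of one enzyme complex were thus found at nearly equal levels, with the lowest ratios in the 72 h libraries.

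Ext2 had 7694, 6573 and 7125 normalised reads in untreated cells, 6146, 6259 and 5981 at 12 h and 8801 and 8485 at 72 h. The 3 groups did not overlap, and the 12 h libraries were the lowest. Between 12 h and 72 h it rose by 0.50 ± 0.11 (log2, adjusted p 0.0159), while -0.22 at 12 h and 0.28 at 72 h against untreated cells did not pass (adjusted p 0.287 and 0.127). The rise did not pass without RA 12 h replicate 1 or 2 (adjusted p 0.061 and 0.0635) or RA 72 h replicate 1 or 2 (0.138 and 0.102). Ext1 had 10474, 7572 and 8694 normalised reads in untreated cells, 7987, 7445 and 8611 at 12 h, and 9521 and 8386 at 72 h. These overlapped throughout, with log2 changes of -0.14 and 0.02 (adjusted p 0.611 and 0.963). The exostosin-like genes Extl2, at 467 to 666, and Extl3, at 846 to 1134, did not pass in any comparison, and Extl1 was too low to test at 5.25 to 15.9.

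Ndst1, the main N-deacetylase and N-sulfotransferase of most tissues, had 388, 374 and 468 normalised reads in untreated cells, 441, 553 and 450 at 12 h and 598 and 572 at 72 h. The 72 h libraries stood above all others, and the 12 h libraries overlapped the untreated ones. The log2 change was 0.52 ± 0.14 at 72 h (adjusted p 0.0275) and 0.23 at 12 h (adjusted p 0.388). The 72 h result did not pass without untreated replicate 1 or 2 (adjusted p 0.0959 and 0.0768) or RA 72 h replicate 1 or 2 (0.185 and 0.105). Ndst2 kept group means of 149, 150 and 138, and the epimerase Glce of 590, 540 and 566, with no change past the adjusted p and with every interval within 2-fold. Ndst3 and Ndst4 lay between 10.1 and 33.8 normalised reads.

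Among the core proteins, the glypicans Gpc4 and Gpc1 changed places between the 2 RA times. Gpc4 (ENSMUSG00000031119, chromosome X, 49406198 to 49518429) had 1565, 1283 and 1168 normalised reads in untreated cells, 1030, 1122 and 1317 at 12 h and 2163 and 2534 at 72 h. The 72 h libraries were far above all others, and the untreated and 12 h libraries overlapped. The log2 change was 1.02 ± 0.14 from 12 h to 72 h, or 2.03-fold (adjusted p 0.00091), and 0.82 ± 0.14 at 72 h against untreated (adjusted p 0.00223), while it was -0.21 at 12 h (adjusted p 0.459). Without RA 12 h replicate 1 the step between the times was 0.95, and without RA 72 h replicate 2 it was 0.91, below 2-fold but past the adjusted p in both. Within the sides it was 0.94 and 1.01.

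Gpc1 had 1296, 1576 and 1088 normalised reads in untreated cells, 1648, 1666 and 1996 after 12 h of RA and 860 and 1110 after 72 h. The 12 h libraries were the highest, and the 72 h libraries lay below them with no overlap. The log2 change from 12 h to 72 h was -0.85 ± 0.16 (adjusted p 0.00674), and -0.85 and -0.94 within the sides. Against untreated cells the changes of 0.43 at 12 h and -0.42 at 72 h did not pass (adjusted p 0.127 and 0.126). Without RA 72 h replicate 1 the step was -0.67 and did not pass (adjusted p 0.107).

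Per kb, Gpc4 made up 52.5% to 62.1% of the sum of Gpc1 and Gpc4 in untreated libraries, 45.9% to 47.7% at 12 h, and 77.3% and 75.6% at 72 h. Gpc4 shares its stretch of chromosome X with 2 other members: Hs6st2 lies at 48740389 to 49035033 and Gpc3 at 49625603 to 49967127, on the same strand. In the same 72 h libraries Gpc4 rose and Hs6st2 fell. Gpc3 stayed at 17.2 to 46 normalised reads over 342 kb and did not pass. Gpc2 was low at 7.25 to 17.6 and Gpc5 and Gpc6 lay at 85.2 to 209 and 67.4 to 182, and none of the 3 passed.

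**Figure D3:**
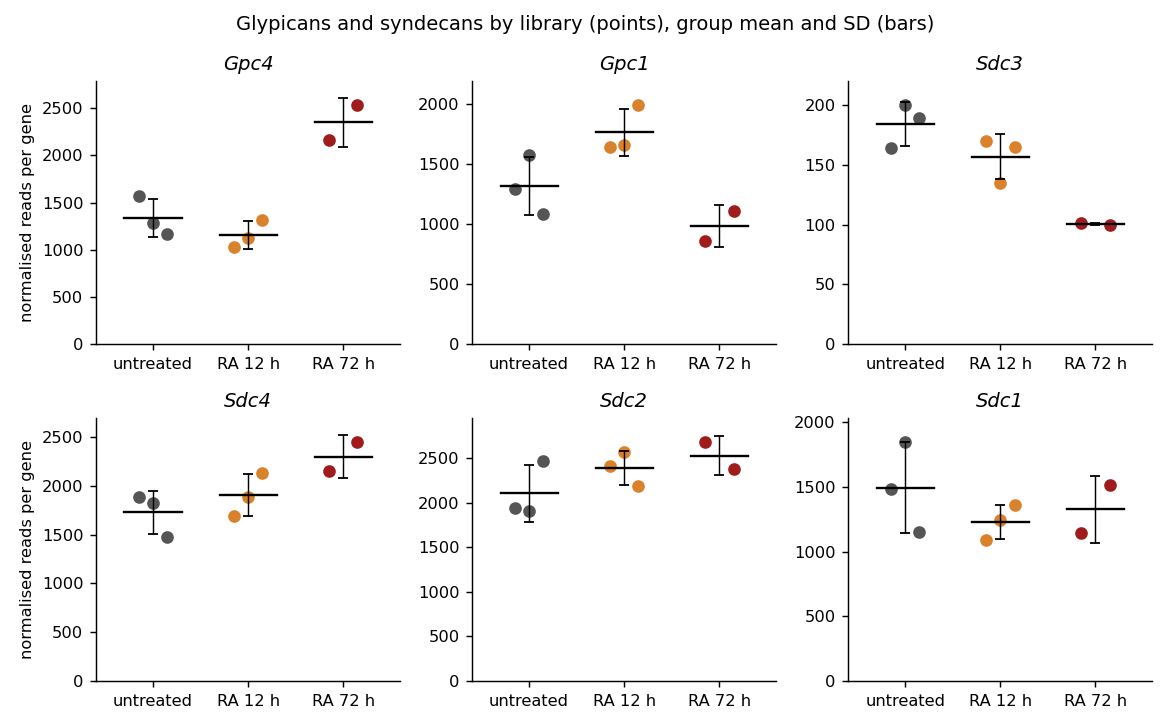
Normalised reads per gene (linear axes from 0) of 2 glypicans and the 4 syndecans in each library (points), with the group mean and SD (bars), for untreated (n = 3), RA 12 h (n = 3) and RA 72 h (n = 2). Gpc4 is above 2000 only in the 72 h libraries, where Gpc1 and Sdc3 are lower than at 12 h, and the other syndecans overlap between 12 h and at least 1 other group.

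The syndecans Sdc4, Sdc2 and Sdc1 were abundant and Sdc3 was not. Sdc3, known mainly from nerve and muscle, had 164, 200 and 189 normalised reads in untreated cells, 170, 135 and 165 at 12 h and 101 and 100 at 72 h. The 72 h libraries lay below all others. Sdc3 fell by 0.86 ± 0.16 on the log2 scale at 72 h (adjusted p 0.00274), to 0.55 times the untreated level, and by 0.85 and 0.89 within the sides. The change at 12 h was -0.24 (adjusted p 0.436). From 12 h to 72 h it was -0.62 (adjusted p 0.0331), which did not pass without RA 12 h replicate 1 or 3 (0.138 and 0.089) or RA 72 h replicate 1 or 2 (0.161 and 0.188).

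Sdc4, a syndecan of focal adhesions, had 1883, 1827 and 1470 normalised reads in untreated cells, 1695, 1889 and 2132 at 12 h and 2147 and 2452 at 72 h. Both 72 h libraries were above all others, but the log2 change of 0.42 ± 0.14 did not pass (adjusted p 0.0681). Sdc2 had 1940, 1902 and 2471 in untreated cells, 2411, 2566 and 2184 at 12 h and 2685 and 2374 at 72 h, which overlapped throughout. Its log2 changes were 0.19 and 0.27 (adjusted p 0.459 and 0.228). Sdc1, the epithelial and plasma cell syndecan, ranged from 1093 to 1850 with no change past the adjusted p. The sum of the 4 syndecans per kb was 1654 to 1809 in untreated cells, 1707 to 1879 at 12 h and 1968 and 2091 at 72 h.

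Chst1, which sulfates keratan sulfate rather than chondroitin, was lower at 72 h. It had 410, 324 and 449 normalised reads in untreated cells, 405, 448 and 437 at 12 h and 272 and 274 at 72 h. The 72 h libraries lay below all others. The log2 change at 72 h was -0.51 ± 0.14 against untreated (adjusted p 0.0323) and -0.65 ± 0.14 against 12 h (adjusted p 0.0163). The first did not pass without untreated replicate 1 or 3 (adjusted p 0.109 and 0.0553), RA 12 h replicate 2 (0.059) or RA 72 h replicate 1 or 2 (0.17 and 0.138), and the second not without RA 12 h replicate 2 (0.0807) or RA 72 h replicate 1 or 2 (0.111 and 0.112). The other Chst genes, Chst2, Chst8, Chst9 and Chst10, had 5.62 to 44.1 normalised reads and did not pass, and Chst4 (1 to 4.62) and Chst5 (1 to 8) were too low to test.

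**Figure D4:**
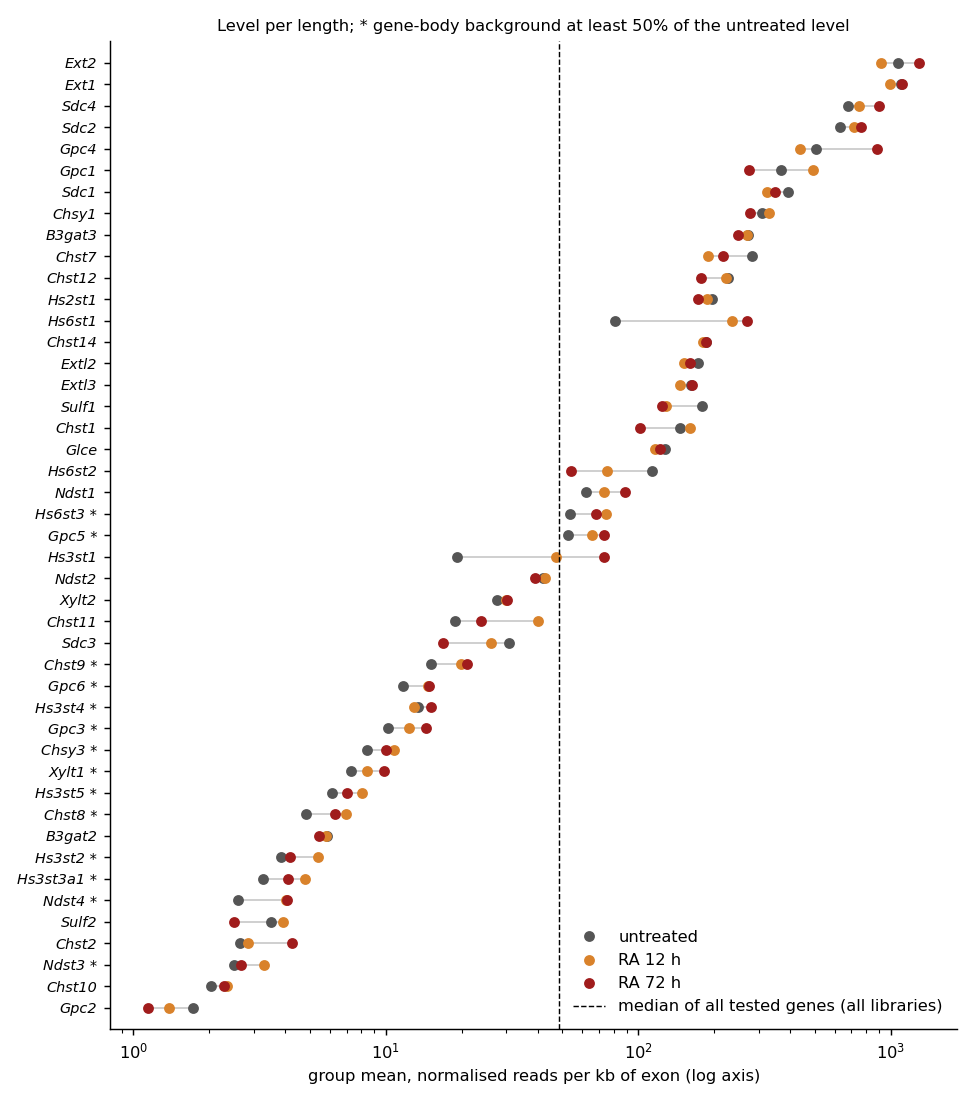
Group means of the 45 tested genes in normalised reads per kb of exon (log axis), ordered by the mean over the 8 libraries, with the median of all tested genes, 48.6, as a dashed line. Ext2, Ext1, Sdc4, Sdc2 and Gpc4 stand at the top, and most genes marked with * (reads at the background rate of long genes would give at least 50% of the untreated level) stand below the median.

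Much of the low end of this range followed the genomic length of the gene. The 25th percentile of normalised reads per Mb over 943 genes of at least 200 kb was taken as a background of reads along gene bodies. It was 91.7, 71.9 and 138 per Mb in the untreated libraries, 135, 132 and 101 at 12 h and 150 and 105 at 72 h. For 14 of the 45 tested genes this rate would give at least 50% of the untreated level: Chst8, Chst9, Chsy3, Gpc3, Gpc5, Gpc6, Hs3st2, Hs3st3a1, Hs3st4, Hs3st5, Hs6st3, Ndst3, Ndst4 and Xylt1. The share ran from 68.5% for Hs3st3a1 to 160% for Ndst4. It was 121% for Gpc5, a gene of 1432 kb, 95.7% for Gpc6 and 96.4% for Hs6st3, which lie in this order on chromosome 14 (115491437 to 116923659, 117324519 to 118378751 and 119537637 to 120268816). The levels of these 14 genes were thus close to that background.

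None of the 14 passed the adjusted p, yet 13 of them were positive at 12 h and 14 at 72 h, with median log2 changes of 0.41 and 0.36. After subtraction of the background in each library the medians were 0.00 and -0.28. Of the other 31 tested genes, 14 and 13 were positive, with medians of -0.01 and -0.11. The 14 were chosen by their untreated level, which also enters each change. A low untreated value favours both the choice and a positive sign, so these counts and medians are description only. For Hs6st1 the background was 1.27% of the untreated level, for Hs6st2 3.32%, for Gpc4 0.842% for Chst11 20.3% and for Hs3st1 33.1%, falling to 11% of the Hs3st1 level at 72 h.

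**Figure D5:**
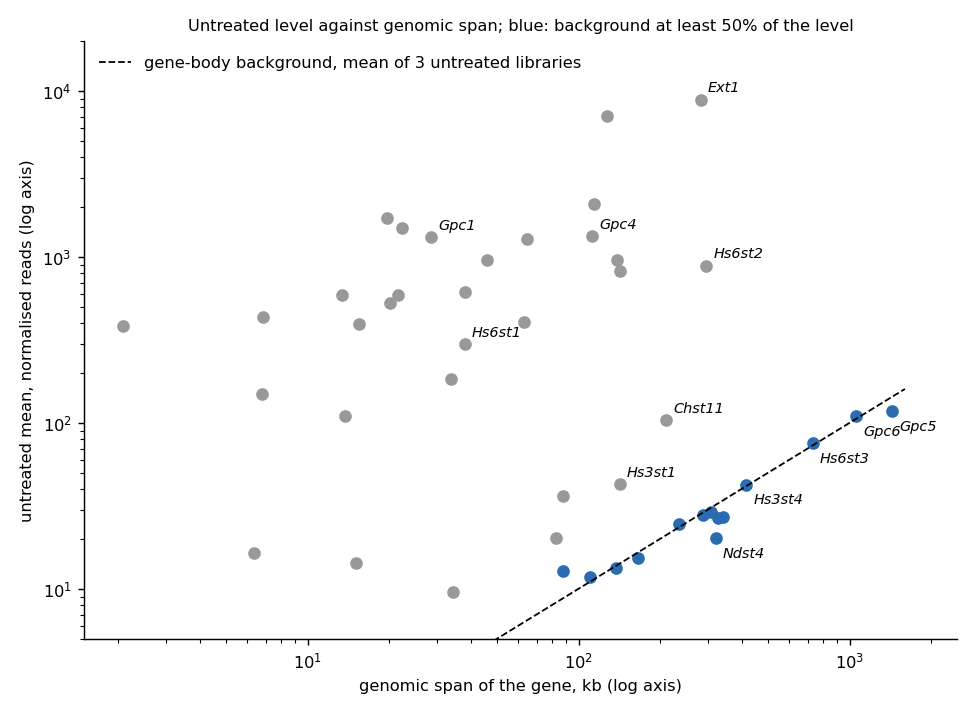
Untreated mean (normalised reads, n = 3, log axis) of each tested gene against its genomic span in kb (log axis), with the gene-body background as a dashed line. The 14 blue genes lie along the line, from Hs3st3a1 at 87.5 kb to Gpc5 at 1432 kb, and Hs6st1, Hs6st2, Gpc4 and Ext1 lie well above it.

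The surrounding pathway was read from 60 further genes: donors of sugar and sulfate, other chondroitin enzymes, lysosomal enzymes, other core proteins, hyaluronan synthases and the glypican lipase Notum. Of 47 tested, 1 was higher (Nrp1) and 5 lower (Ids, Cd44, Cspg4, Has2 and Notum) at 12 h, 3 were higher and 10 lower at 72 h, and from 12 h to 72 h Ugp2 was higher and Papss2, Vcan and Bgn lower, with the shares of all genes as given above. Core proteins made up 3 of the 6 at 12 h, 7 of the 13 at 72 h and 2 of the 4 between the RA times. Of 10 core proteins tested, 2 were higher and 5 lower at 72 h. The lower ones included Vcan (versican), a large chondroitin sulfate proteoglycan of the matrix. Vcan had 404, 393 and 370 normalised reads in untreated cells, 272, 304 and 295 at 12 h and 157 and 130 at 72 h, a log2 change of -1.44 ± 0.13 at 72 h (adjusted p 1.09e-05). Cd44 (-0.95), Bgn (biglycan, -0.67), Cspg4 (-0.58) and Agrn (agrin, -0.53) were also lower at 72 h, and Nrp1 (0.60) and Tgfbr3 (0.45) were higher.

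Among the donors, 14 of 14 were tested and 2 passed at 72 h. Papss2, which makes the sulfate donor PAPS, had 66.4, 50.4 and 65.6 normalised reads in untreated cells, 53.5, 37.1 and 36.9 at 12 h and 18.4 and 18.1 at 72 h, with a log2 change of -1.67 ± 0.24 at 72 h (adjusted p 0.000535). Ugp2, which makes UDP-glucose, the precursor of UDP-glucuronic acid and UDP-xylose, had a log2 change of 0.67 (adjusted p 0.0109) at 72 h and 1.12 from 12 h to 72 h (adjusted p 0.00068). Notum, which removes the lipid of Wnt proteins and can release glypicans, fell from a mean of 56.2 to 24.1 at 12 h and 27.4 at 72 h, with log2 changes of -1.19 and -1.01 (adjusted p 0.00327 and 0.0106). Has2, a hyaluronan synthase, fell from 47 to 14.4 and 13.5, with log2 changes of -1.65 and -1.77 (adjusted p 0.00591 and 0.0042). Its 12 h change did not pass with the gene-body background subtracted (adjusted p 0.0713). The lysosomal sulfatase Ids was lower at both times (-0.50 and -0.46), and the dermatan epimerase Dse at 72 h (-0.43). No change of these pathway genes reversed under the 17 alternatives. Vcan, Cd44, Bgn and Papss2 at 72 h and Ids, Cspg4 and Notum at 12 h passed in all of them, while Dse was lost in 12 (highest adjusted p 0.377), Nrp1 at 12 h in 11 (0.221) and Cspg4 at 72 h in 9 (0.288). Without RA 72 h replicate 1, and again without RA 72 h replicate 2, Ids, Notum, Agrn and Tgfbr3 at 72 h and the later step of Papss2 and Bgn did not pass (highest adjusted p 0.0825, 0.0747, 0.109, 0.164, 0.0971 and 0.131). Of the others at 72 h, Ugp2 (0.157) and Nrp1 (0.0772) did not pass without replicate 2, nor Has2 without replicate 1 (0.0731), and at 12 h Cd44 did not pass without RA 12 h replicate 2 (0.0538).

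The genes whose log values followed those of Hs6st1 most closely over the 8 libraries were Tnfaip3 (Pearson's r 0.994), Amotl1 (0.991) and Plekha7 (0.991). For Hs3st1 they were Pdgfb (0.992), Twist2 (0.990) and Wnt1 (0.990). These values describe 8 libraries in 3 groups and come with no test.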

How the data were processed

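Polyadenylated RNA of 8 libraries was sequenced. Per the labels, cDNA was cut with DpnII and fragments of 17 bases beside the site were released with MmeI and sequenced. The methods of the study describe fragmented RNA, alignment with Tophat, counting with Cufflinks and a size-factor normalization. Of 284 coding genes without a DpnII site in any transcript, 19.4% had a mean of at least 10. The share was 60.8% of 16557 genes with a site and transcripts of at most 5404 bases, the longest without a site. Lengths were not matched further, and dependence of the reads on the site was not tested. The per-kb scale assumes that reads spread along transcripts. Titles carry cl1, which resembles the name of the TAF4-expressing line in the study, but the genotype labels were followed.

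The authors deposited normalised reads per Ensembl gene (other unit, mm9), with group log2 ratios that were not used. Sorted values of the 8 columns were identical, so the values are quantile normalised and not counts, and no count test was run. One line without a gene was left out. Of 22200 genes, 21465 had coordinates (mm9 annotation). Strand of counting is not given in the sources used here, so overlapping genes may share reads.

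Values were taken as log2(value + 1). A linear model with 3 groups and a variance trend was fitted with limma 3.58.1 (R 4.3.3) to 12673 genes with a mean of at least 10, with two-sided p-values adjusted by Benjamini-Hochberg within each comparison, and the procedure was tested on simulated data. Members given with adjusted p-values were those past 0.05 in any comparison and the 5 highest per kb, and the others are given by levels, some with intervals. The members, though selected by symbol, and the lists and alternatives were chosen with earlier results of these data known. RefSeq windows (GRCm38.p6) were searched for motifs.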

Additional observations from a re-analysis of the deposited data

Results flagged for a closer look

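In 7 genes the change under RA differed between 72 h and 12 h. This is the limma comparison of the 2 RA times given above and no further test, since the untreated libraries enter only its estimate of the spread. Over all tested genes, 2.92% were higher and 2.92% lower in it. The difference (72 h minus 12 h, log2) was 1.02 for Gpc4, -0.85 for Gpc1, -0.75 for Chst11, -0.65 for Chst1, -0.62 for Sdc3, 0.50 for Ext2 and -0.47 for Hs6st2. Gpc4, Gpc1, Ext2 and Chst1 had values of opposite sign at the 2 times, although of these only Gpc4 and Chst1 passed the adjusted p against untreated cells, both at 72 h. Hs6st2 was lower at both times and lower still at 72 h. Sdc3 passed against untreated cells at 72 h (-0.86) and not at 12 h (-0.24), and Chst11 at 12 h (1.11) and not at 72 h (0.36). Time in culture and the length of RA treatment cannot be told apart in these differences, and 72 h has 2 libraries. Groups of 2 and 3 are too small for a test of single outlying libraries.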

How the results depend on the processing

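The counts of members and the changes of the 15 members given with adjusted p-values were recomputed with each of the 8 libraries left out in turn, and under 9 other alternatives: a pseudocount of 10, no filter, a mean of at least 20, a constant prior variance, only the 2 groups compared, the replicate block, the side as a term, the gene-body background subtracted, and libraries centred on their median. The side was derived from the within-group differences of these same values, so as a term it tends to lower the residual spread and the p-values. At 72 h against untreated, 13 genes passed the adjusted p with the side as a term, against 8, and 5 to 11 with 1 library left out (5 without RA 72 h replicate 1, 11 without untreated replicate 3). Between 72 h and 12 h, 7 genes passed, but 4 with no filter on low values, 1 with a constant prior variance, and 1 to 8 with 1 library left out (3, 3 and 4 without RA 12 h replicates 1, 2 and 3, and 1 and 2 without RA 72 h replicates 1 and 2). The call of Gpc4 there was 0 genes with the side as a term (its change was then 0.98) and 0 to 1 with 1 library left out (0 without RA 12 h replicate 1, and Gpc1 in place of Gpc4 without RA 72 h replicate 2). The totals at 12 h, and of genes called at 72 h against untreated, kept within 1.5 times of 6, 3 and 3. By direction at 12 h, the 3 lower genes became 1 with a constant prior variance and without untreated replicate 2, RA 12 h replicate 2 or RA 12 h replicate 3, and the 3 higher became 5 without untreated replicate 3. Of the recomputed changes that had passed, none reversed, 283 kept and 74 lost their call or adjusted p. Of those that had not passed, 14 came to pass, among them the later step of Hs3st1 under 5 alternatives (adjusted p 0.0156 to 0.0456), and 5 reversed near 0: with 1 library left out, Ext1 at 72 h ran from -0.09 to 0.14, Sdc2 between the RA times from -0.01 to 0.17 and Sulf1 there from -0.12 to 0.01. The median change over the members ran from -0.00 to 0.17 at 12 h and from -0.11 to 0.23 at 72 h, lowest at both with background subtracted. Per-kb ratios were not recomputed. With a constant prior variance, Chst1, Chst7, Ext2, Gpc1 and Ndst1, Sulf1 at 12 h, and Hs6st2, Chst11 and Sdc3 between the RA times missed the threshold (adjusted p 0.058 to 0.114). Some of them also missed it with no filter (Ext2 0.0503 to Chst11 0.0674), with background subtracted (Gpc1 0.0533 to Chst7 0.0948) or with only the 2 groups (Ndst1 0.0509, Chst1 0.0875).

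Correlations of same-numbered deviations ran from -0.474 to 0.42. They also carry the shared within-group axis, and so cannot decide whether the replicate numbers pair the libraries. With the replicate block, 5, 6 and 2 genes passed at 12 h, at 72 h and between the times. The cause of these differences was not tested. Quantile normalization limits what depth can show, since it removes the totals of single libraries.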
